A study of Mus musculus with 15 samples.

Results

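The 32 genes described here encode the enzymes that build cholesterol and fatty acids, together with the proteins that switch these enzymes on and off. They were chosen by name, and every array probe whose transcript accession belongs to a listed gene was taken: 53 probes for 32 genes, out of 18350 genes named on the array and 14226 genes bright enough to test. RNA came from homogenized heart tissue of C57BL/6 mice that were young adults when weekly intraperitoneal injections began. Methamphetamine hydrochloride (meth) in PBS was given for 5 months at a dose that rose every week over 20 weeks to 40 mg/kg, and control mice received PBS alone on the same schedule. Each heart had an array of its own, with 4 meth and 4 PBS arrays from males and 4 meth and 3 PBS arrays from females. Each male group holds 2 hearts from each of 2 independent trials, and the females were placed in the first trial by their titles, although another label puts female meth replicates 3 and 4 and female PBS replicate 3 in the second. All hearts were taken after the 20 weeks of dosing, so mice that died earlier are not among them. Every slide held both treatments. The p-values measure the spread between arrays of the same group and trial. Where those arrays lay on different slides, this spread mixes differences between mice with differences between slides. The main test had no term for the slide. The male arrays of trial 2 shared a slide and a scan session with no other arrays. In males, trial, slide and scan session therefore cannot be told apart wherever the trials are compared.

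Animal cells make cholesterol from acetyl-CoA through mevalonate and squalene, and make fatty acids from the same acetyl-CoA through malonyl-CoA. Both branches are switched on by the sterol regulatory element-binding proteins (SREBPs), membrane-bound transcription factors encoded by Srebf1 and Srebf2 that are held in the endoplasmic reticulum by INSIG proteins while sterols are plentiful. SREBP-2 is known to act mainly on cholesterol genes and SREBP-1c on lipogenic genes. Liver and fat are the main sites of lipogenesis, and the heart takes most of its fatty acids from the blood.

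RefSeq promoters (build GRCm38.p6) were given for 25 of the 32 genes, from 33 transcription starts. The letters CCAAT, on either strand, were searched in the 250 bases before each start, because they are the box read by NF-Y, a factor known to act beside SREBPs. All 18 cholesterol genes and regulators that had a promoter held CCAAT before at least 1 start (19 of 25 starts, 76%), as did 3 of 7 lipogenic genes (3 of 8 starts, 37.5%). The same letters lay before 33.8% of all 32851 starts in the table, and before at least 1 start of 37.5% of its 27025 genes. The letters TCACNCCAC, known from sterol regulatory elements, were present before 1 member start, that of Hmgcs1, and before 1.05% of all starts. The GC box letters GGGCGG were in 20 of 25 cholesterol and regulator starts and in 3 of 8 lipogenic starts, against 32.7% of all starts, and the E-box letters CACGTG in 4 of 25 and 0 of 8, against 6.02%. The 150 bases before the start are shown 5′ to 3′ on the gene's own strand for 2 lipogenic genes and 2 mevalonate enzymes. Fasn and Thrsp varied widely between hearts, and the spread of Hmgcs1 and Mvk lay near the median of the genes tested. The lipogenic genes Elovl6 and Acaca also varied widely but held no CCAAT in the 250 bases, and no promoter was given for Scd1. Capitals mark CCAAT, its reverse complement and TCACNCCAC.
Fasn, chr11:120824548-120824697, minus strand: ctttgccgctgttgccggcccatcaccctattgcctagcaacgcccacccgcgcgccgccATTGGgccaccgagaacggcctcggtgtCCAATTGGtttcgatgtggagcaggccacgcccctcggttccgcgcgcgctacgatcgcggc
Thrsp, chr7:97417551-97417700, minus strand: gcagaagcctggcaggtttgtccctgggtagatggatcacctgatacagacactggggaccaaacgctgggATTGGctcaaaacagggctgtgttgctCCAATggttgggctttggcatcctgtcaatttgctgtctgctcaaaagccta
Hmgcs1, chr13:119690201-119690350, plus strand: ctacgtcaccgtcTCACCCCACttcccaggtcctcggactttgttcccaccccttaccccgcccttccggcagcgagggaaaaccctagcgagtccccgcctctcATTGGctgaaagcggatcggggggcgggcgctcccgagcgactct
Mvk, chr5:114444119-114444268, plus strand: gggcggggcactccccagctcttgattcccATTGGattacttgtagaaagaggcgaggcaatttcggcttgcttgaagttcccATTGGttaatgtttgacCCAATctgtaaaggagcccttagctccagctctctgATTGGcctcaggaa
The Fasn boxes begin 90, 62 and 59 bases before the start, and the last of these overlaps the one before it on the other strand. The Thrsp boxes begin 79 and 52 bases before the start, and those of Mvk 120, 67, 50 and 14 bases before it. In Hmgcs1 the CCAAT box shown begins 45 bases before the start and TCACNCCAC 137 bases before it. Over the full 250 bases Hmgcs1 held 3 CCAAT matches, Mvk 5, Fasn 3 and Thrsp 2. These are matches of letters only, and binding was not measured.

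All values that follow are log2 signals of a probe relative to the 75th percentile of its array, so that 1 unit is a factor of 2 and 0 is the level of that percentile. A gene is given by its brightest tested probe, and the 32 probes so used were well above background on all 15 arrays. Signals of different probes were not compared with each other. Changes were tested in limma with a term for the trial, and a gene was called at an adjusted p under 0.05 over all tested probes.

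The arrays read as heart muscle: the 8 cardiomyocyte markers (Myh6, Tnnt2 and others) were well above background on all 15 arrays, with a mean signal of 8.25 to 8.79. Transcripts known as markers of other tissues were also read, and some differed between groups. Whether they were made in the heart or came with other tissue was not tested. Mean signals of 5 airway secretory markers ran from 1.53 to 3.77 in male meth hearts and from -4.74 to -4.55 in male PBS hearts, and all 5 passed the test in males. Of 3 airway ciliated markers tested 1 was higher in male meth than in male PBS hearts, as were 2 of 5 alveolar markers, and 1 alveolar marker was lower in female meth than in female PBS hearts. In male PBS hearts 2 of 6 liver, 2 of 5 alveolar and 1 of 5 airway secretory markers were lower than in female PBS hearts, 1 liver marker was higher after meth averaged over the sexes, and the 4 macrophage markers passed in none of the 5 comparisons (at an unadjusted p under 0.05, also 0). On the slide that held female meth replicates 3 and 4 and female PBS replicate 3, the 75th percentile of signal was 438 to 588.7, against 306.9 to 402.7 on the other arrays. The part of these markers and of the slide in the values of the 32 genes was not tested, apart from the fits with the slide as a block or without those arrays.

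Meth against PBS was the first question. None of the 32 genes passed the test in males, in females or averaged over the sexes. At an unadjusted p under 0.05 there were 6 genes in males (4 higher, 2 lower), 3 in females (1 higher, 2 lower) and 7 averaged over the sexes (4 higher, 3 lower). Over all genes tested, 1.34% were called in males and 13.2% passed the unadjusted threshold; in females these shares were 0.443% and 7.82%, and averaged over the sexes 2.23% and 12.7%. The unadjusted shares of the 32 genes were 18.8% in males, 9.38% in females and 21.9% averaged, and whether they differ from those over all genes was not tested. The median change of the 32 genes was -0.020 in males, -0.023 in females and -0.010 averaged, beside -0.019, 0.027 and 0.0047 for all genes. Arrays of the 2 treatments did not overlap for 2 genes in males (both lower after meth) and for 3 in females (2 higher, 1 lower), against 11.6% and 7.01% of all genes. Of the 10 lipogenic genes 8 had a positive averaged change, with a median of 0.34, and of the 22 cholesterol genes and regulators 7 did, with a median of -0.07.

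**Figure D1:**
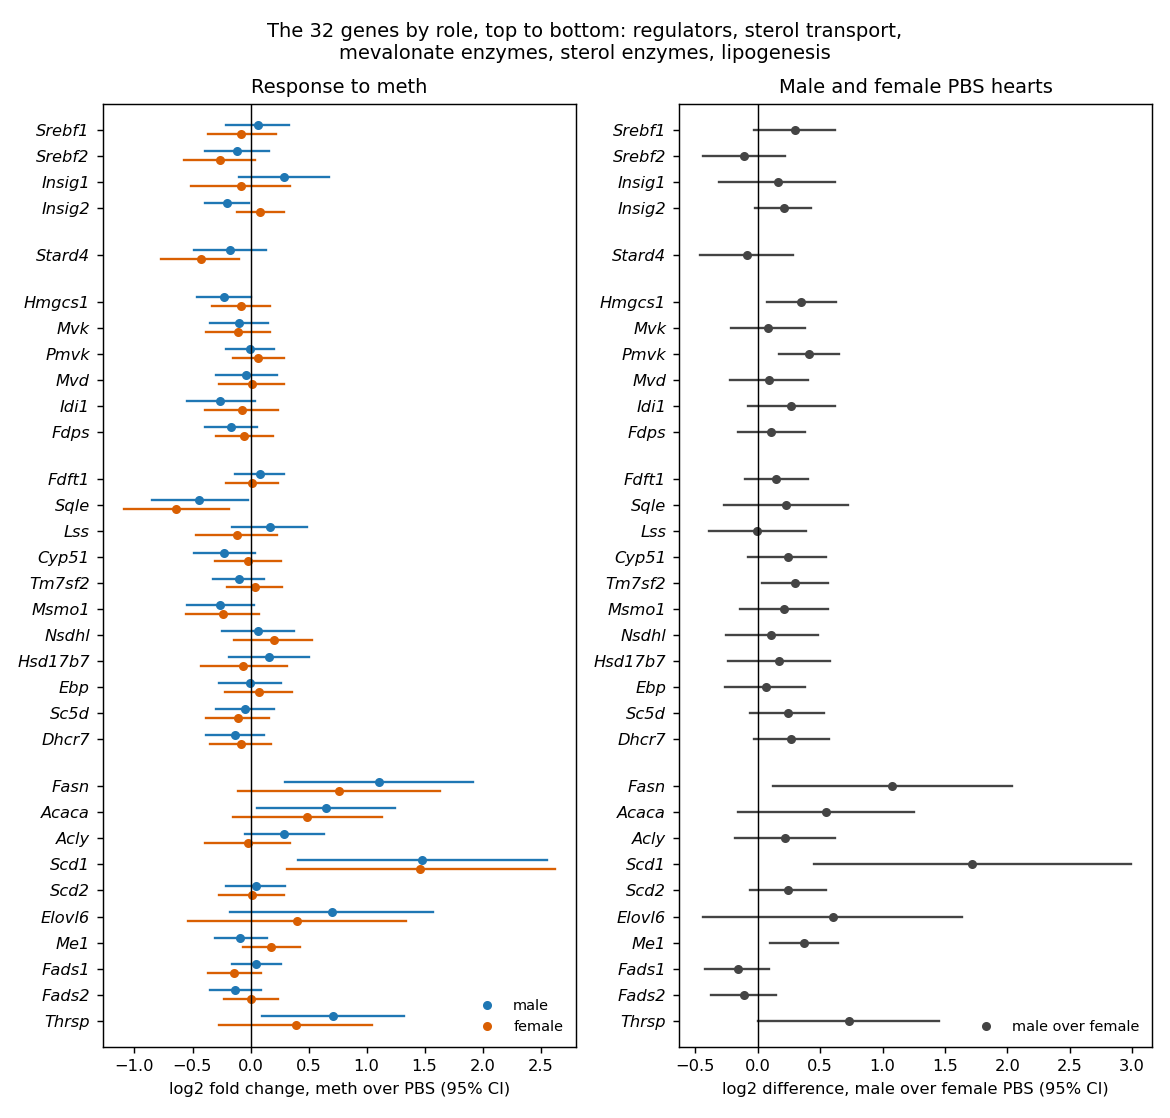
Log2 changes of the 32 genes with 95% confidence intervals from limma: meth over PBS in males (blue) and females (orange) on the left, male over female PBS hearts on the right, genes ordered by role. The intervals of Scd1 lie above 0 in both sexes and those of Sqle below 0, before any adjustment for the number of probes tested, and the meth changes of most cholesterol genes sit within 0.3 of 0.

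Scd1, the stearoyl-CoA desaturase that makes oleic from stearic acid, had the largest change after meth among the 32 genes in both sexes. In male PBS hearts its signals were 3.70 and 1.88 in trial 1 and 0.35 and 0.069 in trial 2, and in male meth hearts 3.41 and 4.83 in trial 1 and 2.46 and 1.23 in trial 2. In females they were 0.80, 1.62 and 0.56 after PBS and 3.19, 1.80, 1.78 and 3.06 after meth. Every female meth heart was thus above every female PBS heart, whereas in males the groups overlapped widely and trial 2 was lower than trial 1. The change was 1.48 ± 0.49 (SE) in males (2.79-fold, adjusted p = 0.218), 1.46 ± 0.53 in females (2.76-fold, adjusted p = 0.286) and 1.47 ± 0.36 averaged over the sexes (2.77-fold, adjusted p = 0.0529). Within the male trials it was 1.33 and 1.63. The averaged value passed the test in 6 of 28 other settings (lowest adjusted p = 0.0342), among them those without male PBS trial 1 replicate 1 (1.67), male meth trial 1 replicate 1 (1.63) or female meth replicate 2 (1.58). In the settings that it did not pass the adjusted p reached 0.306 (without a trial term), and it was 0.15 with the replicate number as a block. Scd2, the desaturase form best known from brain, had an averaged change of 0.027 ± 0.087, and its values ran from 1.61 to 2.27 over all 15 hearts.

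Fasn, the fatty acid synthase itself, followed with signals of 5.91, 4.43, 3.50 and 3.57 in male PBS and 5.47, 6.78, 5.17 and 4.44 in male meth hearts (trial 1 first). Female values were 3.8, 4.43 and 3.79 after PBS and 5.36, 4.48, 4.21 and 5.02 after meth. The groups overlapped in both sexes, in females by a single PBS heart. The change was 1.11 ± 0.37 in males (adjusted p = 0.221), 0.76 ± 0.40 in females (adjusted p = 0.536) and 0.93 ± 0.27 averaged (1.91-fold, adjusted p = 0.1), and its second probe gave 1.03 averaged.

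Thrsp, a small protein that promotes lipogenesis, had signals of 3.10, 2.17, 1.58 and 0.62 in male PBS and 2.51, 3.49, 2.36 and 1.97 in male meth hearts. In females they were 1.83, 1.85 and 1.52 after PBS and 2.36, 2.04, 1.88 and 2.19 after meth, with no overlap. The male change was 0.71 ± 0.28 (adjusted p = 0.298) and the female change 0.39 ± 0.30 (adjusted p = 0.733). In males it was 0.37 in trial 1 and 1.06 in trial 2, and 0.45 without male PBS trial 2 replicate 2.

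Acaca, the acetyl-CoA carboxylase that commits carbon to fatty acids, had an averaged change of 0.57 ± 0.20 (adjusted p = 0.182). Its 4 probes differed: the other 3 gave -0.17, 0.28 and 0.15, and the mean over the 4 was 0.21. Elovl6, which lengthens palmitic acid and is named here after its values were seen, ran from -2.12 to 0.23 in male PBS, from -1.59 to 0.80 in male meth, from -1.56 to -0.70 in female PBS and from -1.34 to -0.18 in female meth hearts. The groups overlapped in both sexes, and its averaged change was 0.55 ± 0.30 (adjusted p = 0.430). Of the remaining lipogenic genes, Acly (ATP citrate lyase) had an averaged change of 0.14, Me1 (malic enzyme, a source of NADPH) 0.047, and the desaturases Fads1 and Fads2 -0.046 and -0.063.

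**Figure D2:**
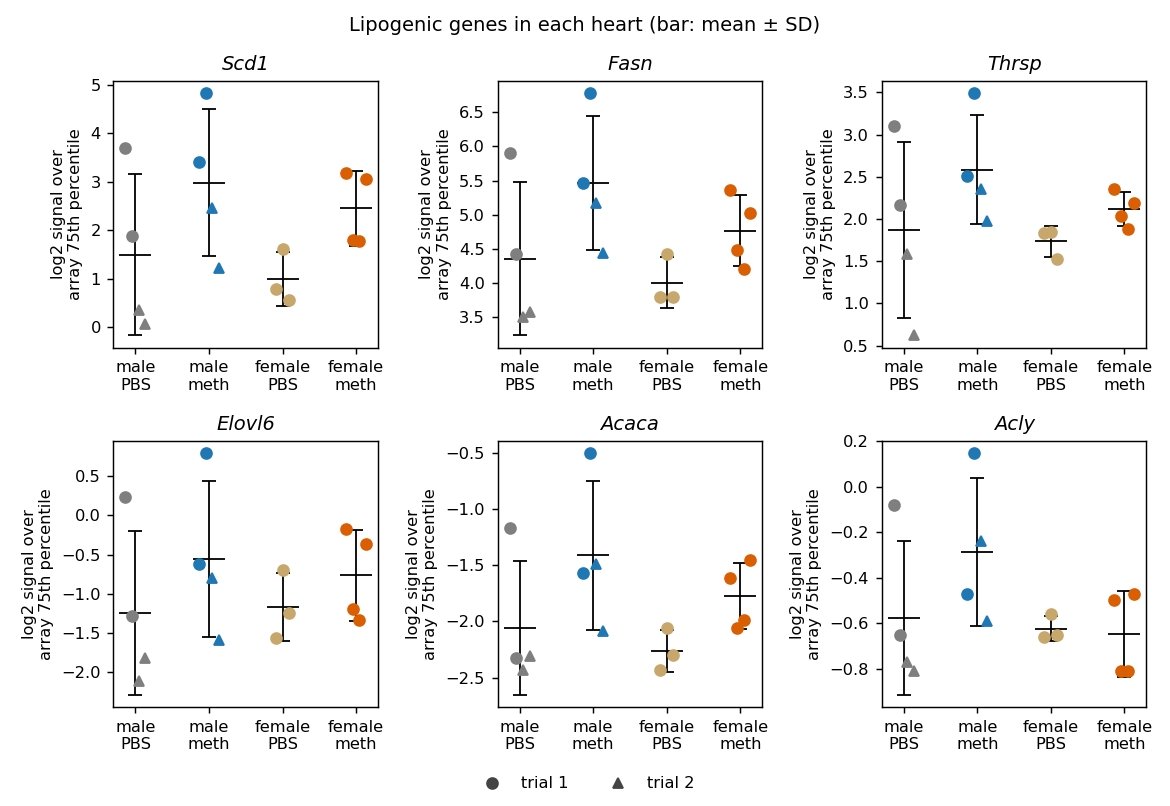
Log2 signal over the array's 75th percentile of 6 lipogenic genes in each heart, by group, with circles for trial 1 and triangles for trial 2, and the mean ± SD of each group in black. In each of the 6 plots the highest male meth heart is trial 1 replicate 2 and the highest male PBS heart is trial 1 replicate 1.

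The lipogenic genes that varied most did so heart by heart. After removing group and trial means, the residual SD was 0.77 for Scd1, 0.63 for Elovl6, 0.58 for Fasn, 0.43 for Thrsp and 0.42 for Acaca, all at or above the 90th percentile of the genes tested, whose median was 0.16. In Scd1, Fasn, Elovl6, Acaca, Thrsp and Acly the highest male meth heart was trial 1 replicate 2 and the highest male PBS heart trial 1 replicate 1, arrays picked out after their values were seen. The same was true of 7 of 8 white fat markers, of 12 of the 22 cholesterol genes and regulators and of 14.9% of all genes tested. Of the brown fat markers it was true of Ucp1, Cidea, Elovl3 and Otop1 and not of Cox8b and Pdk4. These 2 hearts read high in several gene groups at once.

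Markers of white fat were read in the same hearts. The mean signal of 8 markers (Adipoq, Lep, Plin1, Cfd, Retn, Cidec, Fabp4 and Car3) had a median of 1.14 in male PBS (0.77 to 2.29), 2.24 in male meth (1.34 to 3.44), 1.09 in female PBS (1.02 to 1.38) and 2.29 in female meth hearts (1.87 to 2.70). Of the 8 markers 7 were well above background on all arrays. Averaged over the sexes 4 of 8 rose: Retn (resistin) by 1.62 (adjusted p = 0.0139), Cfd (adipsin) by 1.41 (adjusted p = 0.00661), Cidec, a lipid droplet protein, by 1.28 (adjusted p = 0.0237) and Car3, a carbonic anhydrase abundant in fat, by 1.20 (adjusted p = 0.0308). Adiponectin (Adipoq) had a change of 1.12 (adjusted p = 0.0548). In males alone 1 of the 8 markers was called and in females alone 0, against 1.34% and 0.443% of all genes. Group means of Fabp4 were 7.47 (male PBS), 7.56 (male meth), 7.29 (female PBS) and 7.45 (female meth). Of 6 brown fat markers none passed in any of the 5 comparisons, and 4 had an unadjusted p under 0.05 in male over female PBS hearts. In RNA from homogenized heart tissue, a different number of fat cells and a different amount of RNA per cell cannot be told apart. The part of the white fat markers in the lipogenic values was not tested.

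**Figure D3:**
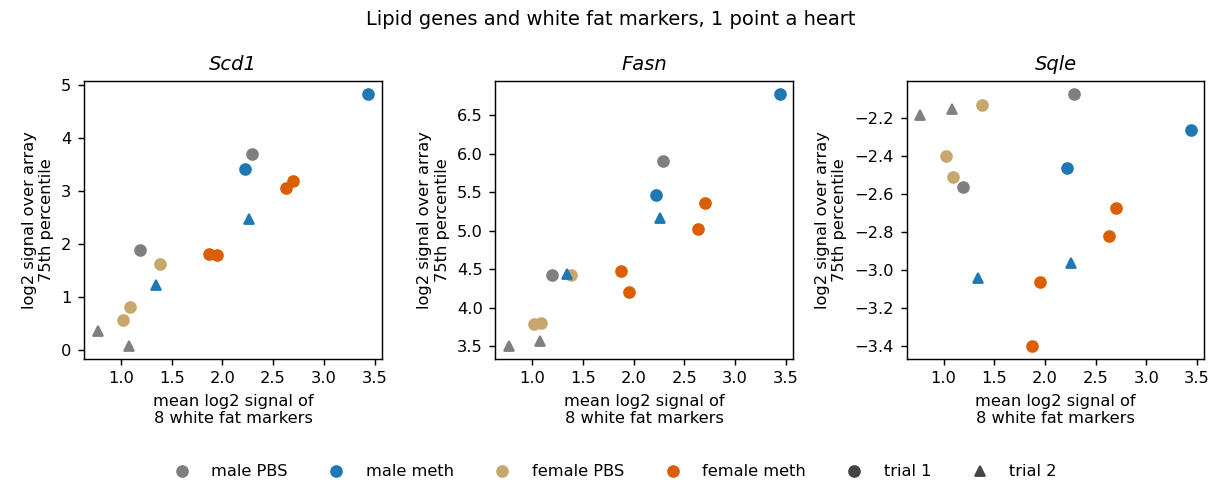
Log2 signal of Scd1, Fasn and Sqle in each heart (vertical axes) against the mean log2 signal of 8 white fat markers (horizontal axes), 1 point a heart, coloured by group, circles for trial 1 and triangles for trial 2. The heart with the highest marker mean (3.44) has the highest Scd1 (4.83) and Fasn (6.78). Sqle is highest (-2.07) in the male PBS heart with the highest marker mean of its group (2.29). Among male meth hearts Sqle is highest (-2.26) in the heart with the marker mean of 3.44. In each female group, too, it is highest in the heart with the highest marker mean.

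On the cholesterol side the values were lower after meth for a few genes. Sqle, squalene epoxidase, the first oxygen-requiring step of sterol synthesis, had signals of -2.07, -2.56, -2.18 and -2.15 in male PBS and -2.46, -2.26, -2.96 and -3.04 in male meth hearts. In females they were -2.51, -2.13 and -2.40 after PBS and -2.67, -3.40, -3.06 and -2.82 after meth. All 4 female meth hearts were below all 3 female PBS hearts, and in males the trial 2 hearts separated and the trial 1 hearts did not. The change was -0.64 ± 0.21 in females (adjusted p = 0.213), -0.44 ± 0.19 in males (adjusted p = 0.361) and -0.54 ± 0.14 averaged (adjusted p = 0.0667). Within the male trials it was -0.040 and -0.83, and with another background correction (normexp) the female change was -0.17 and the averaged one -0.21. The averaged value passed the test in 3 of 28 other settings, among them that without male PBS trial 1 replicate 2 (-0.63, adjusted p = 0.0291).

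Stard4, a carrier of cholesterol between membranes, and Msmo1, a sterol C4 demethylation enzyme, are named here after their values were seen. Stard4 ran from -0.50 to -0.24 in male PBS, -0.71 to -0.44 in male meth, -0.62 to -0.073 in female PBS and -1.03 to -0.49 in female meth hearts, so its groups overlapped. Its averaged change was -0.31 ± 0.10 (adjusted p = 0.165), and its other probes gave -0.27 and -0.36. Msmo1 was 1.61, 1.58, 1.61 and 1.82 in male PBS and 1.45, 1.45, 1.37 and 1.31 in male meth hearts, without overlap. It was lower in meth than in PBS hearts on each of the slides when males and females were taken separately (6 of 6 comparisons, -0.37 to -0.13). Most of these comparisons set 1 meth array against 1 PBS array, and the share of all genes with such agreement was not counted. The averaged change of Msmo1 was -0.25 ± 0.10 (adjusted p = 0.233). With the slide as a fixed block Msmo1 (-0.21, adjusted p = 0.0428) and Stard4 (adjusted p = 0.0484) passed the test.

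The rest of the cholesterol pathway showed small values. The mevalonate enzymes, from Hmgcs1 (HMG-CoA synthase) to Fdps (farnesyl diphosphate synthase), had averaged changes between -0.17 and 0.031, and their single-sex 95% intervals all lay between -0.55 and 0.29. The 9 sterol enzymes other than Sqle and Msmo1 lay between -0.13 and 0.13. Of the regulators, Srebf1 had an averaged change of -0.0087 and Srebf2 of -0.19 ± 0.094 (adjusted p = 0.375). Insig2, which holds the SREBPs back, was 3.04, 2.95, 3.01 and 2.98 in male PBS and 2.61, 2.92, 2.81 and 2.85 in male meth hearts. These groups did not overlap, and the change was -0.20 ± 0.087 (adjusted p = 0.359).

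**Figure D4:**
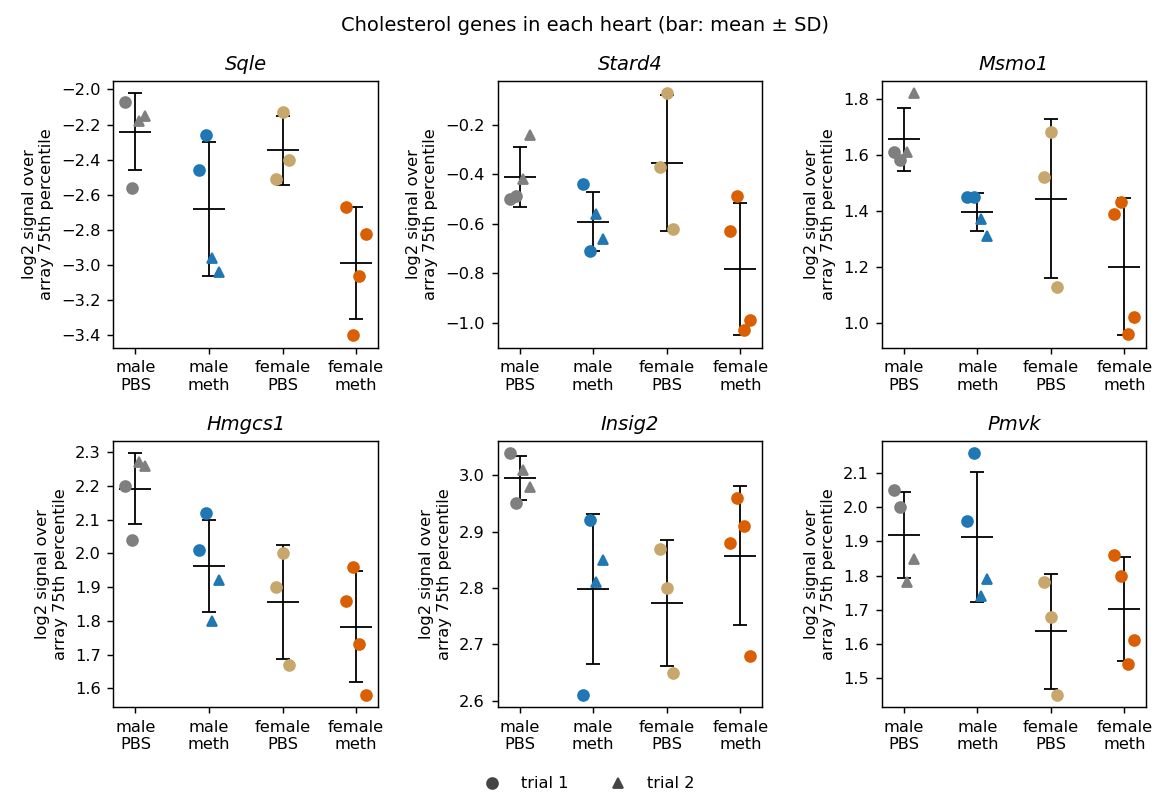
Log2 signal over the array's 75th percentile of 6 cholesterol genes in each heart, by group, with circles for trial 1 and triangles for trial 2, and the mean ± SD of each group in black. Male meth hearts lie below male PBS hearts for Msmo1 (1.31 to 1.45 against 1.58 to 1.82) and Insig2, and female meth hearts below female PBS hearts for Sqle.

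Whether the sexes responded differently was tested by the difference of the 2 responses. None of the 32 genes passed in limma, and 1 had an unadjusted p under 0.05, against 0.155% and 8.11% of all genes. That gene was Insig2, with a male minus female difference of -0.28 ± 0.13 (adjusted p = 0.570). The largest differences were 0.37 ± 0.26 for Insig1 (95% interval -0.20 to 0.95), which was -1.60 in male meth trial 1 replicate 2 and between -2.56 and -2.28 in the other male meth hearts, 0.35 ± 0.55 for Fasn (-0.83 to 1.54) and 0.33 ± 0.41 for Thrsp (-0.57 to 1.23). For Scd1 the difference was 0.016 with an interval of -1.55 to 1.59, so the data set no narrow bound on it. The Insig1 difference was 0.081 by its other probe, 0.055 with the normexp background correction and 0.15 without male meth trial 1 replicate 2.

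Male and female PBS hearts were compared at the level of trial 1. None of the 32 genes passed in limma, and 7 had an unadjusted p under 0.05, all higher in males (Scd1, Fasn, Thrsp, Me1, Hmgcs1, Pmvk and Tm7sf2), against 0.548% called and 15.3% with such a p among all genes. Values were higher in males for 27 of 32 genes, with a median of 0.22, while 52.3% of all genes were higher in males, with a median of 0.013. The shift was not particular to these genes: all 8 cardiomyocyte markers were higher in males too, with a median of 0.25. Among other pathway genes described below, 13 of 16 on the lipogenesis side were higher in males (median 0.35). On the cholesterol side 10 of 18 were (median 0.091). By their brightest probes all 6 mevalonate enzymes and 10 of 11 sterol enzymes were among the 27 of 32 genes. Of the 15 genes with more than 1 tested probe, 7 had a probe of the opposite sign in this comparison, among them Cyp51 (0.24 by the brightest probe, -0.40 and -0.029 by the others), Dhcr7 (0.27 and -0.17) and Mvk (0.084 and -0.073), and by the mean over a gene's probes 25 of 32 were higher in males. Me1 differed by 0.37 (adjusted p = 0.207) and Tm7sf2, a sterol C14 reductase, by 0.30 (adjusted p = 0.275). Scaling by the median of each array moved the median of all genes to 0.13, that of the 32 genes to 0.35 and the count to 31 of 32, and without a trial term 24 of 32 were higher, with a median of 0.12. Pmvk (phosphomevalonate kinase) was 2.05, 2.00, 1.78 and 1.85 in male and 1.78, 1.68 and 1.45 in female PBS hearts, touching at 1.78, with a difference of 0.41 ± 0.11 (1.33-fold, adjusted p = 0.126). Hmgcs1 was 2.04 to 2.27 in male and 1.67 to 2.00 in female PBS hearts, Insig2 2.95 to 3.04 and 2.65 to 2.87, and Sc5d (sterol C5 desaturase) 1.19 to 1.31 and 0.99 to 1.19, which meet only in the rounding. For these 3 genes the sexes did not overlap, against 16.6% of all genes, and their differences were 0.35, 0.21 and 0.24 (adjusted p = 0.232, 0.369 and 0.427). The other Hmgcs1 probe gave -0.42 (adjusted p = 0.377), so the direction for Hmgcs1 depends on the probe, while the other Insig2 probe gave 0.10.

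The largest sex differences were those of Scd1 (1.72 ± 0.58, adjusted p = 0.206), Fasn (1.08 ± 0.44, adjusted p = 0.277) and Thrsp (0.73 ± 0.33, adjusted p = 0.327), and their male PBS values overlapped the female ones. They depended on the trial term, which only the males inform: without it they were 0.51, 0.34 and 0.13. Without male PBS trial 1 replicate 1 they were 1.13, 0.59 and 0.34. White fat markers had a median difference of 0.69 and brown fat markers of 1.20 in the same comparison, and their part in it was not tested.

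Other genes of these pathways were taken from lists that hold none of the 32 and were chosen with earlier results of these data known. On the cholesterol side (18 genes, among them the SREBP escort Scap, the lysosomal cholesterol exporters Npc1 and Npc2 and the efflux pumps Abca1 and Abcg1) none passed in limma in any of the 5 comparisons. Averaged over the sexes 13 of 18 were positive, with a median of 0.11, and 4 had an unadjusted p under 0.05, all higher after meth: Abcg1 (0.34, adjusted p = 0.0918), Npc1 (0.26), Abca1 (0.15) and Npc2 (0.14). Over all genes tested 51.8% of the averaged changes were positive, with a median of 0.0047, and 12.7% had such a p. Whether the listed genes differ from these shares was not tested. On the lipogenesis side the median averaged change was 0.14 with 11 of 16 positive. Here 1 of 16 rose after meth, in males, in females and averaged, where 1.34%, 0.443% and 2.23% of all genes were called in either direction. That gene was Mid1ip1, the close relative of Thrsp that is known to promote assembly of acetyl-CoA carboxylase. Its signal ran from 4.53 to 4.93 in male PBS, 5.22 to 5.38 in male meth, 4.23 to 4.51 in female PBS and 4.83 to 5.16 in female meth hearts, with no overlap in either sex. The change was 0.56 ± 0.10 in males (adjusted p = 0.0196), 0.60 ± 0.11 in females (adjusted p = 0.0293) and 0.58 ± 0.073 averaged (adjusted p = 0.00165). The averaged call held in 27 of 28 other settings, the exception being trial 1 arrays alone (adjusted p = 0.0601), while the male call held in 20 of 30 and the female call in 15 of 30. The male call was lost without any single one of male meth trial 1 replicate 2, both male meth hearts of trial 2 and both male PBS hearts of trial 2, and the female call without any single one of female meth replicates 1, 2 and 4 and female PBS replicates 1 to 3. With the replicate number as a block the adjusted p was 0.0539 in males, 0.0733 in females and 0.0172 averaged. By the methods' t-test it was 0.268 paired and 0.166 unpaired in males, and 0.441 and 0.27 in females. With normexp it was 0.0728 in males and 0.145 in females. In trial 1 arrays alone it was 0.584 in males, with a change of 0.38, and 0.0653 in females.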

How the data were processed

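Total RNA of 15 mouse hearts, 1 mouse per array, was labelled with Cy3 and hybridised to 1-colour Agilent mouse arrays. The scanner files, as deposited by the authors, hold spot intensity on a linear scale with the background already subtracted by Agilent Feature Extraction (version 10.5.1.1 in the file headers, 9.1 in the submitters' processing notes). The series table deposited by the authors holds log2 values of the same arrays and served as an alternative. The methods also name Genespring and a paired t-test.

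Processed intensities were taken to log2, averaged over spots of a probe without outlier-flagged spots, and set relative to the 75th percentile of their array. A probe was tested (28367 of 41174 were) if 3 or more of the 15 arrays held it well above background. limma 3.58.1 in R 4.3.3 was fitted to the 4 groups with a trial term, for 5 comparisons, with Benjamini-Hochberg adjustment over all tested probes; every adjusted p in the text is from this fit or a named variant. Accessions named 26918 of 41174 probes through a RefSeq table (GRCm38.p6). A gene is its tested probe of highest mean signal: 17 of the 32 genes had 1 tested probe and 15 had more, and of these 15 a probe had the opposite sign in 5 in males, 4 in females, 3 averaged, 8 in the difference and 7 between PBS hearts. Named genes are those past the threshold and the 3 largest changes in each comparison, with others named to show their level. The 32 genes, the marker lists and the other pathway lists were chosen with earlier results of these data known. The number of arrays limits precision. Same-numbered meth and PBS arrays deviated together (7 of 7 pairs, r from 0.257 to 0.664 over 23820 probes), each pair sharing a slide, so the replicate block was fitted as an alternative. Alternatives also covered scaling, background, filter, trial, slide, the methods' t-test and each replicate left out. The test was tried on simulated data. Plots were made in matplotlib 3.10.9 under Python 3.11.15.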

Additional observations from a re-analysis of the deposited data

Results flagged for a closer look

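In 4 of 96 groups of 4 hearts tested, 1 heart lay far from the other 3 by Dixon's test, where chance alone gives about 1 in 20. Srebf2, the SREBP-2 gene, was lowest in male meth trial 2 replicate 2 (-2.91), with a gap of 0.892 of the group's range. Msmo1 was highest in male PBS trial 2 replicate 2 (1.82), with a gap of 0.87 of the range. Insig1 was highest in female meth replicate 2 (-2.41), with a gap of 0.83 of the range. Acaca was highest in male PBS trial 1 replicate 1 (-1.17), with a gap of 0.9 of the range.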

How the results depend on the processing

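No member passed in the comparison of meth with PBS in males, in females or in the difference between the sexes under any alternative run. Averaged over the sexes, 1 member passed after scaling by the median (Scd1), 2 with the slide as a fixed block (Msmo1 and Stard4), 2 with the slide as a random block and 2 among probes well above background on all arrays (Scd1 and Sqle in both), and 0 to 1 with a replicate left out. The 1 was Scd1 without male PBS trial 1 replicate 1, male meth trial 1 replicate 1 or female meth replicate 2, and Sqle without male PBS trial 1 replicate 2. Between male and female PBS hearts 1 passed with the trial taken from the source name (Pmvk, adjusted p = 0.0402). With the replicate block 0 members passed in the 4 comparisons it could be fitted for, and 7, 4, 7 and 3 of 32 had an unadjusted p under 0.05 in males, females, averaged and in the difference, beside 18.7%, 11.2%, 14.4% and 14.6% of all genes in that fit; male against female PBS could not be fitted with it. The methods' t-test, paired or unpaired, called 0 members after Benjamini-Hochberg adjustment, and at an unadjusted p under its threshold 1 and 4 of 32 in males (17.2% and 15% of all genes) and 5 and 2 of 32 in females (8.9% and 6.4% of all genes). The Thrsp difference between the sexes turned to -0.021 in trial 1 arrays alone, and the Insig1 difference of 0.37 ranged down to 0.055 (normexp). The cause of these shifts was not tested.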
